A study of Mus musculus with 4 samples.

Results

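Drosha-independent miRNAs reach their mature form without the nuclear cut by Drosha that most miRNAs need. They were taken from the miRNA count tables by name as every listed form of miR-320, miR-484, miR-877, miR-702 and miR-1224, whichever arm of the hairpin it comes from. This gave 6 of the 590 miRNA names listed in any library, namely mmu-miR-320, mmu-miR-484 and mmu-miR-877 (mmu stands for mouse and is left out below), its partner arm miR-877*, miR-702 and miR-1224. Each of the 6 was present in all 4 libraries, and each passed the filter on low counts. The study compared synovial fibroblasts of TghuTNF mice, an arthritis model made by a transgene for human TNF, with those of wild-type (WT) littermates, with 2 biological replicates of each. All mice were 8 weeks old, of the strain labelled CBA/J * C57BL/6/J, and the fibroblasts came from digested hind joints and were used at passage 4 of culture. Most cells carried CD90.2 and almost none the macrophage marker Mac1 in flow cytometry, per the labels' protocols. The labels do not state the promoter of the transgene or how many animals went into a culture, and the p-values measure the spread among these 4 cultures.

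A canonical miRNA is cut from its primary transcript in the nucleus by Drosha and its partner DGCR8, and the released hairpin is trimmed to the mature duplex by Dicer in the cytoplasm. Mirtrons such as miR-877, miR-702 and miR-1224 replace the Drosha step with splicing: a short intron is removed, opened by the debranching enzyme and folded into a hairpin for Dicer. miR-320 and miR-484 use neither route, since transcription itself makes a short hairpin. The precursor of miR-320 carries the cap of an RNA polymerase II transcript, leaves the nucleus through exportin 1 and loads mainly its 3' arm into Argonaute. All of these miRNAs still need Dicer.

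The mature sequences are given 5' to 3' from RefSeq (GRCm38.p6), with the seed (bases 2 to 8) in capitals. Of the 5 loci, 4 matched the sequence table. That of miR-320 did not, so the comparisons of sequences below leave out miR-320. The deposited names miR-702 and miR-1224 carry no arm, so both arms of those hairpins are given, and miR-877* corresponds to the 3' arm.
miR-484: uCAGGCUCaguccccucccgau
miR-877-5p: gUAGAGGAgauggcgcaggg
miR-877-3p: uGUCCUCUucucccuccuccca
miR-702-5p: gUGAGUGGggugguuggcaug
miR-702-3p: uGCCCACCcuuuaccccgcucc
miR-1224-5p: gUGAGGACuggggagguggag
miR-1224-3p: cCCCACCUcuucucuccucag
No seed was shared among these 7 arms, and 1 of them, that of miR-702-5p, was shared with another mature miRNA of the table, miR-3102-5p. The arms were 20 to 22 bases long with a GC content of 59.1% to 68.2%, against a median of 52.2% over the 1738 mature miRNAs of the table. The 5' arms of the mirtrons were rich in G (11 to 13 bases each) and their 3' arms rich in C (12 to 13 bases each). None of the 7 had another mature miRNA of the table within 2 mismatches, the number that the read matching allowed, in an ungapped comparison over at least 18 bases.

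The mirtron hairpins are shown because they carry the mark of this route, the ends of an intron. Capitals mark the first bases (GU) and, where the hairpin reaches them, the last bases (AG) of the annotated intron.
mir-877: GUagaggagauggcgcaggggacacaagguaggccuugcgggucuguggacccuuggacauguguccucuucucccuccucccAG
mir-1224: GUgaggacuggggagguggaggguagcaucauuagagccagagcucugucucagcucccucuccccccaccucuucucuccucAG
mir-702: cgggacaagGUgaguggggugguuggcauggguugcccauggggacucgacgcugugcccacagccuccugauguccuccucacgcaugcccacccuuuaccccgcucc
The hairpin of mir-877 (chr17:35960730-35960814, minus strand) fills an 85-base intron of Abcf1, which encodes an ABC-family protein of translation initiation. The hairpin of mir-1224 (chr16:20604452-20604536, plus strand) fills an 85-base intron of Vwa5b2. The annotated hairpin of mir-702 (chr5:136991433-136991541, plus strand) begins with 9 bases of an exon of Plod3, a collagen lysyl hydroxylase, and ends 2 bases before the end of the 102-base intron that follows. Of 1005 mouse hairpins in the table, 30 (2.99%) begin with GU and end with AG, and mir-877 and mir-1224 are among them.

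The loci of miR-320 and miR-484 are not introns of their own strand in GENCODE M21 (GRCm38). Mir320 lies on chromosome 14 at 70443510 to 70443591 on the plus strand, outside annotated genes and 63 bases from the start of Polr3d, which encodes a subunit of RNA polymerase III and runs the other way. Mir484 lies on chromosome 16 at 14159626 to 14159692 on the plus strand, 3583 bases upstream of the annotated start of Nde1. Of its 67-base hairpin, 19 bases overlap an untranslated exon of Marf1 on the opposite strand, and the rest, with the mature miR-484, lies in an intron of that gene.

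Total matches were 27362819 and 22959408 in the TghuTNF libraries, against 16680860 and 26542371 in the WT libraries, and a count of 0 would allow a level of up to 0.110 to 0.180 CPM (counts of matches scaled to a total of 1000000). The replicate libraries of a genotype differed beyond sampling noise, with a chi-square per degree of freedom of 510.3 for TghuTNF and 514.1 for WT. TghuTNF replicate 2 stood apart in its mismatches, with 11.7% of all matches carrying 2 mismatches, against 8.21% in TghuTNF replicate 1 and 8.64% and 8.73% in the WT libraries. Of the miRNA markers, 6 mesenchymal ones, mostly miR-21 and miR-143, summed to 283580 and 304758 CPM in TghuTNF and 281581 and 294349 CPM in WT, while 6 epithelial miRNAs summed to at most 11.6 CPM in any library, with miR-200a at 0 in WT replicate 1 and miR-429 at 0 in WT replicate 2. The 3 muscle markers (miR-1, miR-133a and miR-206) summed to 2053 and 1782 CPM in TghuTNF against 2424 and 3006 CPM in WT, so muscle miRNAs were present in cultures labelled as fibroblasts. Nearly all of this sum was miR-206 and miR-1, while miR-133a was at 1.20 and 0.932 CPM in TghuTNF and 2.19 and 2.06 CPM in WT.

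Drosha-independent miRNAs spanned over 3 orders of magnitude, and miR-320 made up nearly all of their reads. Levels are TMM-scaled CPM, and since each read covers a mature miRNA of similar length, they can be ordered, although adaptors join different sequences with different efficiency and this was not corrected. By its mean over the 4 libraries, miR-320 stood at 1290 CPM (rank 54 of the 590 listed names), miR-877 at 65.2 CPM (rank 150) and miR-484 at 35.9 CPM (rank 179). miR-702, miR-877* and miR-1224 lay at 0.573, 0.384 and 0.341 CPM (ranks 426, 438 and 447). miR-320 was above every other member in every library. The order of miR-877 and miR-484 did not hold everywhere, since in TghuTNF replicate 2 miR-877 was at 37.1 CPM and miR-484 at 38.6 CPM. The 3 scarce miRNAs overlapped each other, with 5 to 17 matches in any library, so their order lies within the spread between libraries.

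**Figure D1:**
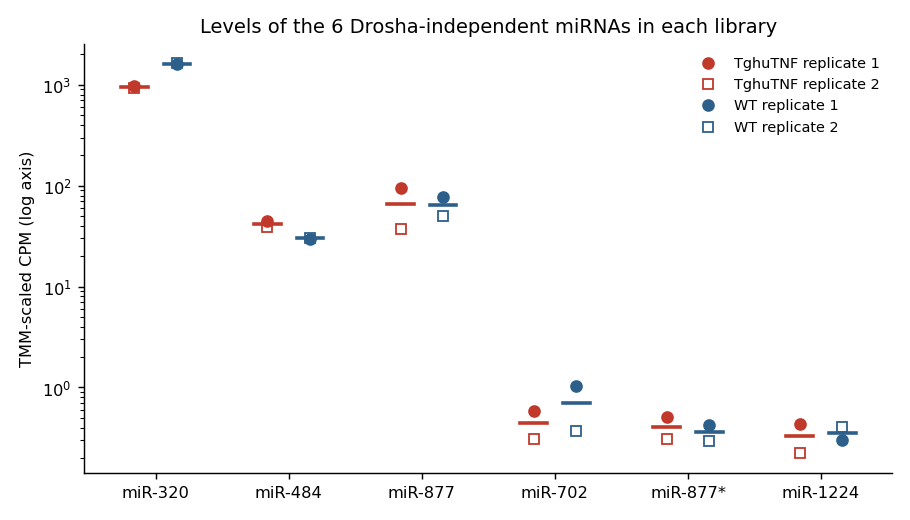
TMM-scaled CPM (log axis) of the 6 Drosha-independent miRNAs, with TghuTNF in red to the left of WT in blue, replicate 1 as filled circles, replicate 2 as open squares and the mean of 2 libraries as a bar. miR-320 is the one whose groups are far apart relative to their spread, and miR-877 is the one among the abundant 3 whose replicates are far apart.

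miR-320 fell in TghuTNF fibroblasts. It was at 973.9 and 939.2 CPM in the TghuTNF libraries, against 1616 and 1629 CPM in the WT libraries, from 26886 and 21153 matches against 26559 and 44354. Both TghuTNF libraries lay below both WT libraries, and within each genotype the replicates were close. The means were 957 ± 24.6 CPM in TghuTNF and 1623 ± 9.04 CPM in WT (SD, n = 2 each). The level was 1.70-fold lower in TghuTNF, a log2 fold change of -0.76 ± 0.16 (SE; 95% interval -1.12 to -0.40; edgeR adjusted p = 0.0096 over 442 miRNAs). In RNA from whole cultures, less miRNA per cell and fewer cells that carry it cannot be told apart.

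The fall of miR-320 was of similar size in perfectly matching reads and without any 1 library. As CPM of perfect matches alone it stood at 1224 and 1132 in TghuTNF, against 2014 and 2088 in WT. With each library left out in turn, the log2 fold change ranged from -0.87 to -0.76. Endothelial miR-126-3p and miR-126-5p moved the same way, with a summed level of 68.8 and 66.7 CPM in TghuTNF against 126.7 and 107.6 CPM in WT. miR-126-3p was called lower (log2 fold change -0.79 ± 0.22 SE, edgeR adjusted p = 0.035) and miR-126-5p was not called (edgeR adjusted p = 0.084). The muscle markers were also lower in TghuTNF, at the sums given above, and the 5 blood cell markers summed to 28.8 and 21.6 CPM in TghuTNF against 16.1 and 6.39 CPM in WT. No muscle marker was called. Blood cell miR-223 was called higher, with 90 and 54 matches in TghuTNF against 10 and 8 in WT (log2 fold change 2.72 ± 0.47 SE, edgeR adjusted p = 0.0026). miR-142-3p and miR-142-5p were not called, and miR-451 and miR-150 were not tested. Of the mesenchymal markers, miR-214 fell, with 117 and 99.5 CPM in TghuTNF against 256 and 156 CPM in WT (log2 fold change -0.93 ± 0.26 SE, edgeR adjusted p = 0.037). The other 5 were not called, miR-145 among them with a log2 fold change of 0.75 ± 0.33 (SE; edgeR adjusted p = 0.16). The part of these markers in the fall of miR-320 was not tested.

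miR-484, the other short-hairpin miRNA, was not called, and its levels were higher in TghuTNF. It was at 45.1 and 38.6 CPM in the TghuTNF libraries, against 29.9 and 30.0 CPM in the WT libraries, from 1245 and 869 matches against 492 and 818. Both TghuTNF libraries lay above both WT libraries, and the WT replicates were almost equal. The means were 41.8 ± 4.61 CPM in TghuTNF and 30.0 ± 0.073 CPM in WT (SD, n = 2 each), with a log2 fold change of 0.48 ± 0.23 (SE; 95% interval -0.030 to 0.99; edgeR adjusted p = 0.19). An increase of nearly 2-fold and no increase both lie within that interval. Without TghuTNF replicate 1 the log2 fold change was 0.29, which leaves 1 TghuTNF library.

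The ratio of miR-484 to miR-320 within a library does not depend on the scaling of libraries. miR-484 had 4.63 and 4.11 matches per 100 of miR-320 in the TghuTNF libraries, against 1.85 and 1.84 in the WT libraries. Put the other way, miR-320 outnumbered miR-484 21.6-fold and 24.3-fold in TghuTNF and 54.0-fold and 54.2-fold in WT. The balance between the pair differed from WT in both TghuTNF cultures, and was close to identical in the WT cultures. This ratio was not tested, and its separation by genotype follows from the opposite directions of the pair given above.

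miR-877, the abundant mirtron, varied more between replicates than between genotypes. It was at 95.6 and 37.1 CPM in the TghuTNF libraries, against 77.7 and 50.6 CPM in the WT libraries, from 2639 and 835 matches against 1276 and 1378. The TghuTNF libraries enclosed both WT libraries, being the highest and the lowest of the 4. The means were 66.3 ± 41.4 CPM in TghuTNF and 64.1 ± 19.1 CPM in WT (SD, n = 2 each), with a log2 fold change of 0.051 ± 0.39 (SE; 95% interval -0.80 to 0.91; edgeR adjusted p = 0.94). Which TghuTNF library was used decided the value. Without TghuTNF replicate 1 the log2 fold change of miR-877 was -0.86, near that of miR-320 in the same fit (-0.87). Without TghuTNF replicate 2 the values were 0.56 for miR-877 and -0.76 for miR-320. Without WT replicate 1 that of miR-877 stood at 0.39 and without WT replicate 2 at -0.23.

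Its partner arm miR-877*, which Dicer cuts from the other side of the same intron, was rare. It had 14 and 7 matches in the TghuTNF libraries, against 7 and 8 in the WT libraries. It made up 0.528% (exact 95% binomial interval 0.289% to 0.884%) and 0.831% (0.335% to 1.71%) of the matches of both arms in TghuTNF, against 0.546% (0.220% to 1.12%) and 0.577% (0.250% to 1.13%) in WT. The 4 intervals overlap, so no difference in arm use was detectable at this depth. Over all libraries the 5' arm outnumbered the 3' arm 170-fold. A read of the whole hairpin, which begins with the 5' arm, was not told apart from one of the mature arm. These intervals, and the limits for a count of 0, hold for counting error alone, because PCR copies were not marked by molecular identifiers. In level, miR-877* was at 0.507 and 0.311 CPM in TghuTNF, against 0.426 and 0.294 CPM in WT (log2 fold change 0.25 ± 0.64 SE, edgeR adjusted p = 0.83).

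The other mirtrons were near the limit of detection. miR-702 had 16 and 7 matches in the TghuTNF libraries, against 17 and 10 in the WT libraries, or 0.580 and 0.311 CPM against 1.03 and 0.367 CPM. Its groups overlapped, and its log2 fold change of -0.52 ± 0.65 (SE; 95% interval -1.96 to 0.91; edgeR adjusted p = 0.63) became 0.29 without WT replicate 1, and was -1.13 without TghuTNF replicate 1, -0.19 without TghuTNF replicate 2 and -1.19 without WT replicate 2. miR-1224 had 12 and 5 matches in the TghuTNF libraries, against 5 and 11 in the WT libraries, or 0.435 and 0.222 CPM against 0.304 and 0.404 CPM. Its groups overlapped too, with a log2 fold change of -0.11 ± 0.67 (SE; 95% interval -1.60 to 1.38; edgeR adjusted p = 0.93). At these counts the interval of miR-1224 holds 2-fold changes in either direction, and that of miR-702 a 2-fold fall but not a 2-fold rise.

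**Figure D2:**
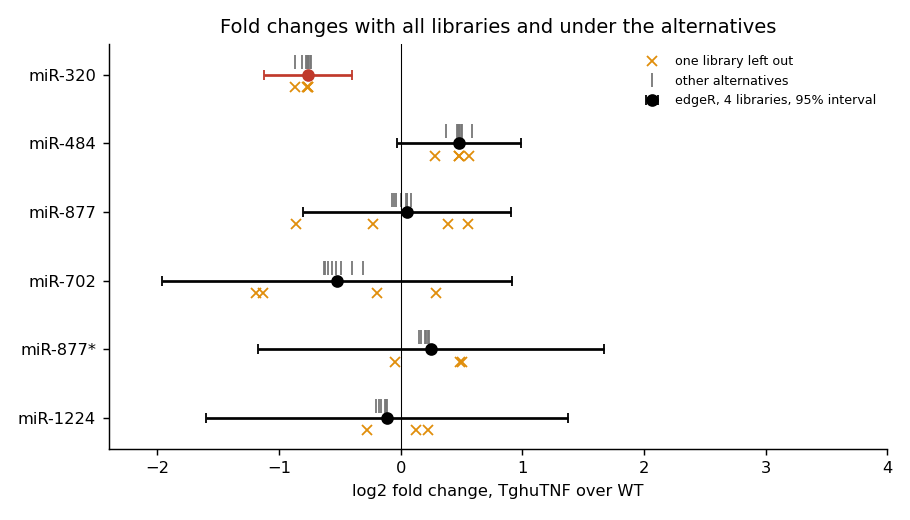
Log2 fold change of TghuTNF over WT for the 6 miRNAs from edgeR with all 4 libraries (points with 95% intervals, red where the adjusted p is under 0.05), with 1 library left out (crosses) and under the other alternatives (ticks). All values of miR-320 lie below 0 and all of miR-484 above it, while those of miR-877, miR-702, miR-877* and miR-1224 fall on both sides.

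No common shift of the Drosha-independent miRNAs was seen. Of the 6 tested, 1 fell (miR-320), 0 rose and 5 did not pass, which is 16.7% called, against 13.3% of all 442 tested miRNAs (8.6% lower and 4.75% higher). Their log2 fold changes were positive for 3 and negative for 3, with a median of -0.030, beside a median of 0.0056 over all tested miRNAs. The groups did not overlap for 2 of the 6, and for 60.6% of all tested miRNAs: miR-320 was lower in both TghuTNF libraries, as were 29.9% of all tested, and miR-484 was higher in both, as were 30.8%. Of the 4 mirtron forms 0 were called by edgeR, and 0 had an unadjusted p under 0.05, against 29% of all tested miRNAs. The 95% intervals of the 4 mirtron forms hold the log2 fold change of miR-320, -0.76. A fall of that size in the mirtrons was therefore neither seen nor excluded. The interval of miR-484 (-0.030 to 0.99) does not hold it. The share called is near that of all miRNAs, so the fall of miR-320 is a result about that miRNA and not about the group.

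**Figure D3:**
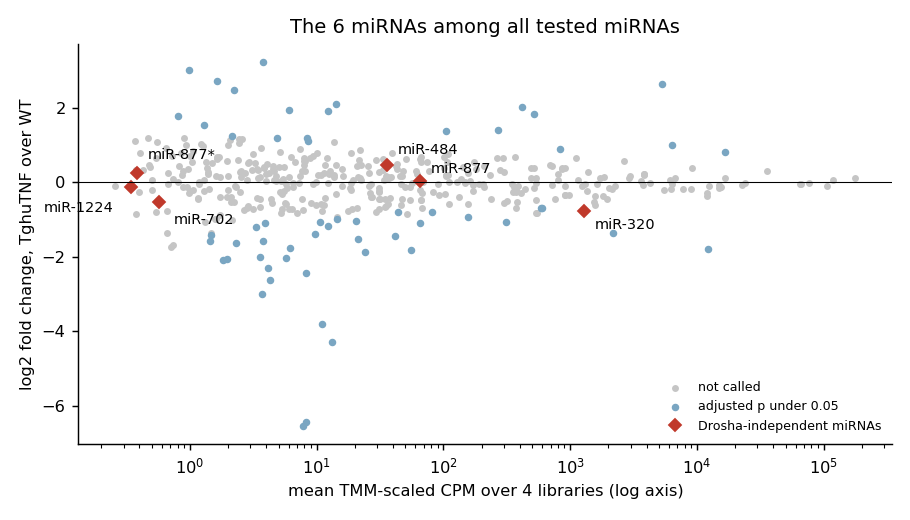
Log2 fold change of TghuTNF over WT against the mean TMM-scaled CPM (log axis) for the 442 tested miRNAs, with called ones in blue and the 6 Drosha-independent miRNAs as red diamonds. miR-320 lies among the called miRNAs at 1290 CPM, and the 5 others lie among those not called.

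The summed level of the 6 followed miR-320. It was 1116 and 1016 CPM in the TghuTNF libraries, against 1726 and 1711 CPM in the WT libraries, and miR-320 made up 87.3% and 92.5% of it in TghuTNF and 93.7% and 95.2% in WT. Without miR-320 the sum was 142 and 76.5 CPM in TghuTNF, against 109 and 81.7 CPM in WT. These sums overlap between genotypes. Their order follows miR-877, with replicate 1 above replicate 2 in each genotype, and the replicate numbers are not said to pair the cultures.

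Set against its own mean on the log2(CPM + 0.5) scale, miR-320 lay at -0.36 and -0.41 in the TghuTNF libraries and at 0.38 and 0.39 in the WT libraries. miR-484 lay at 0.35 and 0.12 in TghuTNF and at -0.24 and -0.23 in WT. miR-877 lay at 0.64 and -0.71 in TghuTNF and at 0.34 and -0.27 in WT. As a measure of likeness, the Euclidean distance between these patterns of 4 libraries was 1.24 between miR-320 and miR-484 and 1.23 between miR-320 and miR-877. Of the 249 other miRNAs with a mean of at least 10 CPM, 203 and 201 lay nearer to miR-320 than these did. miR-484 and miR-877 were 1.06 apart, and 194 of 249 miRNAs lay nearer to miR-484.

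**Figure D4:**
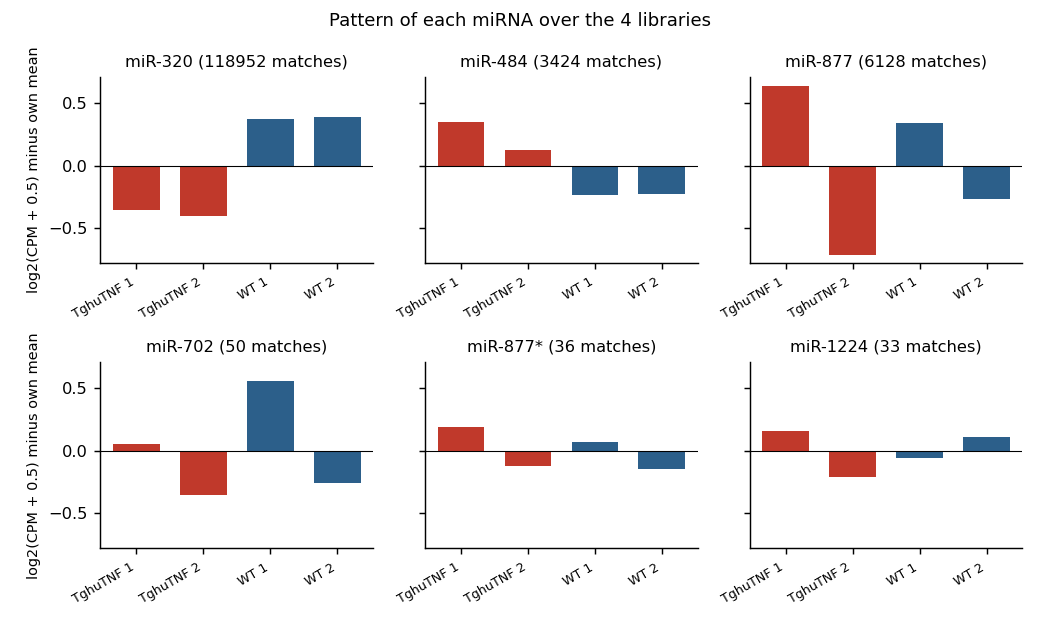
Log2(CPM + 0.5) of each Drosha-independent miRNA in the 4 libraries after subtraction of its own mean, with TghuTNF in red and WT in blue; the number of matches over all libraries stands above each panel. miR-320 is low and miR-484 high in both TghuTNF libraries, whereas miR-877 is highest in TghuTNF replicate 1 and lowest in TghuTNF replicate 2.

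The miRNAs nearest to miR-320 in pattern belong to the miR-467 and miR-669 families, which have many closely similar members. miR-467d was nearest (distance 0.041, at 32.9 and 31.3 CPM in TghuTNF and 55.1 and 56.8 CPM in WT), followed by miR-669n (0.17) and miR-467f (0.17), beside a median distance of 0.80. Only 2.78% of the matches of miR-467d and 0.12% of those of miR-669n were perfect, while miR-467f had 75.2%. miR-467d and miR-669n were called lower and miR-467f was not called (edgeR adjusted p = 0.038, 0.034 and 0.087). The nearest to miR-484 were miR-125b-3p (0.074, with 1.79% perfect matches), miR-29b* (0.17) and miR-1839-5p (0.17), beside a median of 0.65. These 3 were not called (edgeR adjusted p = 0.17, 0.37 and 0.18). With 4 libraries in 2 genotypes, miRNAs with close replicates and a genotype difference of like size lie near each other. The parts of genotype and replicate in these distances were not separated.

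Of other miRNAs of unusual origin none was called by edgeR, and those tested had positive log2 fold changes. The list held miR-451, which Argonaute itself cuts in place of Dicer, miR-664 and miR-1839, which come from H/ACA snoRNAs, and the miR-1981 and miR-1982, reported as mirtron-like, in 8 listed names of which 6 passed the filter. Of the 6, 1 had an unadjusted p under 0.05, and the median log2 fold change was 0.35, with all 6 positive. Over all 442 tested miRNAs, 128 (29%) had an unadjusted p under 0.05 and 224 were positive. miR-1982.1 and miR-1982.2 had equal matches in every library (15 and 6 in TghuTNF, 7 and 7 in WT) and are not separate measurements.

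Of these, miR-1839-5p was at 983.1 and 960.3 CPM in TghuTNF, against 769.2 and 739.2 CPM in WT, a log2 fold change of 0.37 ± 0.17 (SE; edgeR adjusted p = 0.18). miR-1981 was at 303 and 318 CPM in TghuTNF, against 253 and 240.1 CPM in WT, a log2 fold change of 0.33 ± 0.19 (SE; edgeR adjusted p = 0.27). Over the 4 libraries 26.6% of the matches of miR-1981 were perfect. With perfect matches only, its log2 fold change was 0.16 ± 0.21 (SE; edgeR adjusted p = 0.69). Both TghuTNF libraries lay above both WT libraries for miR-1839-5p and miR-1981, as for 30.8% of all tested miRNAs. The groups did not overlap for 4 of the 6 tested on this list, beside 60.6% of all tested miRNAs. miR-664 had 67 and 67 matches in TghuTNF, against 17 and 43 in WT, a log2 fold change of 1.01 ± 0.37 (SE; edgeR adjusted p = 0.10). With 1 library left out, its log2 fold change ranged from 0.77 without WT replicate 1 to 1.37 without WT replicate 2. miR-1839-3p, the scarce partner arm, had 48 and 51 matches in TghuTNF, against 22 and 32 in WT, a log2 fold change of 0.67 (edgeR adjusted p = 0.26). Over the 4 libraries 9.80% of the matches of miR-1839-3p were perfect. The untested names were miR-451, with 10 and 5 matches in TghuTNF and 2 and 7 in WT, and miR-1982*, with at most 2 matches in a library.

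The mismatch classes set miR-484 apart from the other abundant members. Perfect matches made up 87.8% and 81.1% of the matches of miR-320 in TghuTNF, against 88.0% and 88.1% in WT. For miR-877 they made up 88.2% and 78.7% in TghuTNF, against 89.9% and 86.1% in WT. For miR-484 they made up 62.3% and 60.6% in TghuTNF, against 57.5% and 57.3% in WT, and matches with 1 mismatch made up 29.6% and 29.9% in TghuTNF, against 37.2% and 35.7% in WT. Over the 4 libraries the share of perfect matches was 86.8% for miR-320, 86.8% for miR-877 and 60.0% for miR-484, beside a median of 64.2% over the tested miRNAs. The files give no positions of mismatches, so an altered 3' end and an error of reading cannot be told apart.

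Matches with 2 mismatches made up their highest share in TghuTNF replicate 2 for all 3. They made up 2.14% and 7.04% of the matches of miR-320 in TghuTNF, against 1.79% and 1.95% in WT, and 2.84% and 9.58% of those of miR-877 in TghuTNF, against 2.04% and 2.25% in WT. For miR-484 they made up 7.95% and 9.44% in TghuTNF, against 5.28% and 6.97% in WT. The same library had the highest share over all miRNAs, as given above. The share of perfect matches was compared between genotypes with limma on the log2 odds, and 0 of 442 miRNAs passed, with 29 at an unadjusted p under 0.05 (6.56%). For the members the log2 odds differed by -0.41 ± 0.37 for miR-320, 0.24 ± 0.26 for miR-484 and -0.49 ± 0.48 for miR-877 (SE; limma adjusted p = 0.84, 0.87 and 0.84). Without TghuTNF replicate 2 the difference was -0.039 for miR-320 and 0.016 for miR-877.

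**Figure D5:**
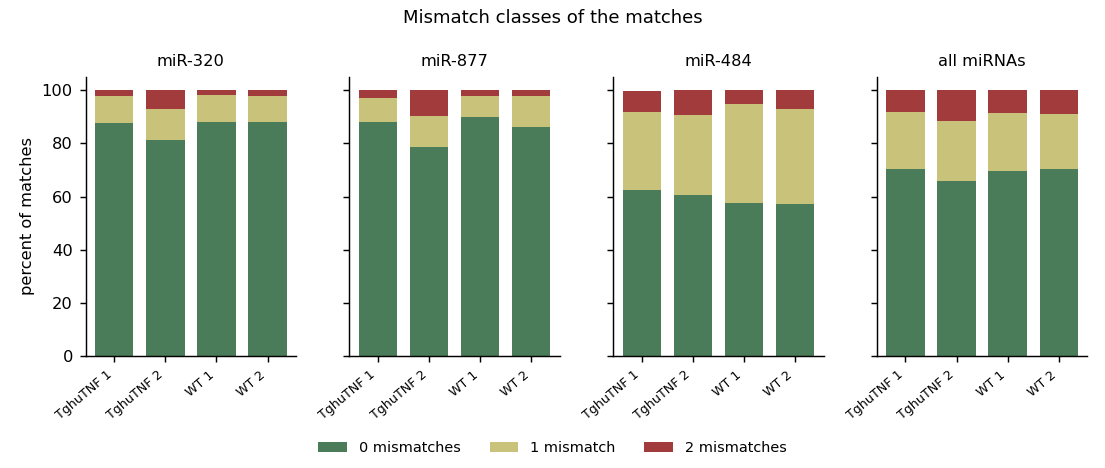
Percent of matches with 0, 1 and 2 mismatches for miR-320, miR-877, miR-484 and all miRNAs in the 4 libraries, TghuTNF left of WT. miR-484 has the largest share with 1 mismatch in every library, and TghuTNF replicate 2 has the largest share with 2 mismatches in every panel.

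Among the scarce members, miR-877* had no match with exactly 1 mismatch in any library, although 36 matches were counted. It had 10 and 5 perfect matches in the TghuTNF libraries, against 4 and 4 in WT, and 4 and 2 matches with 2 mismatches in TghuTNF, against 3 and 4 in WT. Of the 442 tested miRNAs, 2 lacked 1-mismatch matches, the other being miR-1961. Perfect matches made up 88.0% of the matches of miR-702 and 75.8% of those of miR-1224 over the 4 libraries, so most of the few reads given to these mirtrons matched the searched sequence exactly.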

How the data were processed

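Small RNA of 20 to 30 and 70 to 100 nucleotides was sequenced, per the labels' protocols. The authors matched 37-base reads to 707 mouse mature miRNAs with mimap 3d, allowing 2 mismatches (hash length 9), per the file headers. What the authors deposited is the raw count of matches for each miRNA and, in another field, its split into 0, 1 and 2 mismatches. How adaptors were trimmed and how reads with several hits were treated is not given in the sources used here. In the split, 0.0112% to 0.0149% of matches per library were in no class.

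Names absent from a table were counted as 0. Counts were filtered with filterByExpr (442 of 590 kept), scaled with TMM and tested with edgeR 4.0.16 in R 4.3.3 (quasi-likelihood, two-sided, genotype only, Benjamini-Hochberg over 442 miRNAs, threshold 0.05). Log2 odds of a perfect match (pseudocount 0.5) were tested with limma 3.58.1. DESeq2 1.42.0 and other settings were alternatives. Tests were checked on simulated counts. GENCODE M21 gave the loci. Named miRNAs were the members, a list of other noncanonical miRNAs, the 3 nearest in pattern to miR-320 and to miR-484 and cell type markers. Members and lists were chosen with earlier results of these data known.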

Additional observations from a re-analysis of the deposited data

How the results depend on the processing

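The 13 alternatives kept miR-320 lower: log2 fold changes were -0.87 to -0.76 with 1 library left out and -0.87 to -0.74 otherwise. In the fits on all 4 libraries it stayed called (adjusted p of edgeR, DESeq2 or limma-voom 0.00015 to 0.028). miR-484 stayed positive, at 0.29 to 0.56 with 1 library left out and 0.38 to 0.59 otherwise. In the fits on all 4 libraries it stayed uncalled (adjusted p of edgeR, DESeq2 or limma-voom 0.12 to 0.34). Upper quartile factors shifted the median of all miRNAs by -0.11 on the log2 scale, and leaving out TghuTNF replicate 1 also shifted it by -0.11.

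miR-877 changed sign with upper quartile factors (-0.036), limma-voom (-0.054) and a replicate block (-0.073), and ranged from -0.86 to 0.56 with 1 library left out; the cause was not tested. With 1 library left out, miR-702 ranged from -1.19 to 0.29, miR-1224 from -0.27 to 0.22, miR-877* from -0.047 to 0.51, miR-1982.1 and miR-1982.2 from -0.056 to 0.70, and the log2 odds of a perfect match of miR-877 from -1.0 to 0.016. miR-1224, miR-877*, miR-1982.1 and miR-1982.2 had values in 3 of these 4 fits. Fits that leave 1 library in a genotype assume that it varies like the other.

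Over all miRNAs, 59 calls (21 higher, 38 lower) became 93 without a filter (590 tested), 20 with a mean CPM of at least 10 (250 tested) and 49 to 153 with 1 library left out. The replicate block gave 87 calls. Same-numbered libraries did not deviate together (correlation -0.088 across miRNAs), so the numbers are not taken to pair the cultures. In the share of perfect matches the block gave 1 call in place of 0. Depth limits miR-702, miR-877* and miR-1224, at 5 to 17 matches a library.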
